A study of Mus musculus with 9 samples.

Results

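The replicative DNA polymerases copy the genome in every S phase, and the genes of their subunits are described here in a mouse cell line labelled as brain endothelium after photodynamic therapy (PDT). The members are 10 genes, chosen by name: Pola1, Pola2, Prim1 and Prim2 of the polymerase alpha-primase complex, Pold1, Pold2 and Pold3 of polymerase delta, and Pole, Pole2 and Pole3 of polymerase epsilon. Each name matched 1 of the 54532 genes listed, and all 10 passed the filter for testing. Both remaining small subunits, Pold4 and Pole4, are not members and were described beside them.

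RNA sequencing was performed on 9 libraries of the cell line B.END3, with 3 libraries in each of 3 groups. Ctrl cells were untreated. Ep1 and Ep2 cells were grown to a monolayer, incubated with porfimer sodium, a photosensitizer that forms reactive oxygen species under red light, for 90 min at 300 µg/mL, before light of 635 nm was given at 100 mW/cm2 to a dose of 10 J/cm2 (Ep1) or 20 J/cm2 (Ep2). B.END3 is 1 immortalized line, labelled as C57BL/6 brain microvessel endothelium, although the culture text calls it a rat line while the organism given is the mouse. No group of libraries received porfimer or light alone, so in the comparisons with Ctrl their separate parts cannot be told apart. The time between light and lysis was not given in the sources used here. Nothing in the labels says that the 3 libraries of a group came from separate cultures, so the p-values measure only the spread between these libraries, which may be technical.

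Chromosomal replication is shared between 3 polymerases of the B family. Polymerase alpha with primase lays down short RNA-DNA primers, polymerase epsilon extends the leading strand as part of the replicative helicase assembly, and polymerase delta, held on DNA by the sliding clamp PCNA, extends the lagging strand. Transcription of many of these genes is tied to the E2F factors, which are active from late G1 into S phase.

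Values are FPKM, fragments scaled by gene length and library size, which allow levels to be compared between genes. The libraries held between 16240688 and 19509225 fragments on genes, and the 12 subunit genes had between 222 fragments (Pole2 in Ep2) and 2564 fragments (Pold2 in Ctrl) per library. Within a group, pairs of libraries were further apart than counting alone gives (chi-square divided by its degrees of freedom, 2.81 to 15.25), and the widest pair was in Ep2. Of 12 endothelial markers, only Flt1 and Eng reached a mean of 1 FPKM in any group, and Kdr, Erg, Cldn5 and Emcn were below 0.1 FPKM in every library, so most defining markers go against the endothelial label. The epithelial markers Krt8, Krt18, Krt19, Epcam and Cdh1 together lay at 1029 to 1081 FPKM in Ctrl, 937 to 1041 in Ep1 and 1155 to 1372 in Ep2. The endothelial markers together lay at 9.45 to 9.67, 9.43 to 10.8 and 13.0 to 14.1 FPKM. Nearly all of the epithelial sum came from the keratins Krt8, Krt18 and Krt19 (means of 640, 237 and 174 FPKM in Ctrl). Epcam was low, with means of 0.812, 0.819 and 1.77 FPKM in Ctrl, Ep1 and Ep2, and Cdh1 was near 0 (0.034, 0.020 and 0.076). The epithelial markers therefore did not all go the same way. Markers of astrocytes and of microglia and leukocytes had a summed level of at most 0.242 and 0.103 FPKM, those of neurons at most 2.60, and those of mural cells and fibroblasts at most 8.32, with Rgs5, Cspg4, Dcn, Ptprc, Cx3cr1, Aqp4 and Rbfox3 near 0. The part of these markers in the results below was not tested.

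The promoters of the subunit genes are shown first, and their part in the changes below was not tested. RefSeq windows on GRCm38.p6, from 250 bases before to 50 bases after the start of transcription, were found for 10 of the 12 subunit genes, 8 of them members, and Prim2 and Pole were not matched. E2F letters (TTTCCCGC, TTTGGCGC, TTTCGCGC or TTTGCCGC, on either strand) occurred in 4 of the 8 members with a window (50%), compared with 5.09% of 8342 tested genes and 2.6% of all 27025 genes with a window. The 4 members are Pola1, Pold1, Pold3 and Pole2, and the letters also occurred in Pole4. The sites are printed below with up to 8 bases on each side, from 5′ to 3′ along the strand of the gene, with the E2F letters in capitals. They start at base -138 (Pola1), 40 (Pold1), 18 (Pold3), 11 (Pole2) and -34 (Pole4) from the start of transcription. All 5 genes lie on the minus strand, and the sites are at chrX:93632278-93632301, chr7:44548766-44548784, chr7:100121470-100121493, chr12:69228165-69228188 and chr6:82652893-82652916.
Pola1: atcacaggGCGCCAAAtgcactcc
Pold1: atcttgtgGCGGGAAAagc
Pold3: cgaagctgTTTCCCGCcggcggga
Pole2: cggcggtgGCGCCAAAtcgcgaac
Pole4: tacccggcGCGGGAAAggggccga

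The 250 bases before the start are printed for Pold2, the member with the largest fall in Ep2, and for Pold4. In the main limma fit, Pold4 was the only subunit gene that rose in Ep2 at an adjusted p below 0.05. Neither the Pold2 nor the Pold4 window holds the E2F letters, and capitals mark CCAAT or its complement ATTGG, the letters of NF-Y. The Pold2 stretch is the first of 2 RefSeq windows, on the minus strand at chr11:5878257-5878506, and that of Pold4 lies on the plus strand at chr19:4231643-4231892.
Pold2: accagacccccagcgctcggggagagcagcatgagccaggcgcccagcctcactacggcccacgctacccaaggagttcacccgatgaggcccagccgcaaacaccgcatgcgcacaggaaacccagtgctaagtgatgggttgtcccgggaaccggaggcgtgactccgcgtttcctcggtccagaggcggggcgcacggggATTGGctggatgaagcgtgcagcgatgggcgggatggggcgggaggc
Pold4: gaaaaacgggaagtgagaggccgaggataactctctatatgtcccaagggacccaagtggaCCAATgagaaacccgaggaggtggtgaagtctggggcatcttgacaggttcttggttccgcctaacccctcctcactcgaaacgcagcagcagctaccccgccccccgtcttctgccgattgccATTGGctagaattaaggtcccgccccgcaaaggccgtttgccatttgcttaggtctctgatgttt

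CCAAT on either strand occurred in 3 of the 8 members (37.5%) and in 43.4% of the tested genes. GGGCGG, the letters of SP1, occurred in 6 of the 8 members (75.0%) and in 71.7% of the tested genes. The letters of the cell cycle homology region, TTTGAA or TTCGAA, occurred in 1 member (12.5%), in the second window of Pold2, and in 16.0% of the tested genes. These matches describe letters only.

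At the higher light dose all 10 members fell. At the lower dose 2 members were called slightly lower, and these calls did not hold in every alternative fit. The FPKM of the 10 members summed to 193, 192 and 186 in Ctrl, 171, 180 and 177 in Ep1, and 100.0, 98.8 and 96.8 in Ep2. The sums of Ep2 lay below those of both other groups in every library. The members of polymerase delta summed to 99.5 ± 3.37 FPKM (SD, n = 3) in Ctrl, 88.1 ± 1.49 in Ep1 and 43.1 ± 2.19 in Ep2. Polymerase alpha-primase summed to 52.1 ± 1.03, 49.3 ± 1.47 and 29.0 ± 0.400 FPKM, and polymerase epsilon to 38.8 ± 1.66, 38.7 ± 2.93 and 26.5 ± 1.36 FPKM. FPKM is a share of each library, so a fall is relative to the other transcripts, and in bulk RNA fewer replicating cells and less RNA per replicating cell cannot be told apart.

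**Figure D1:**
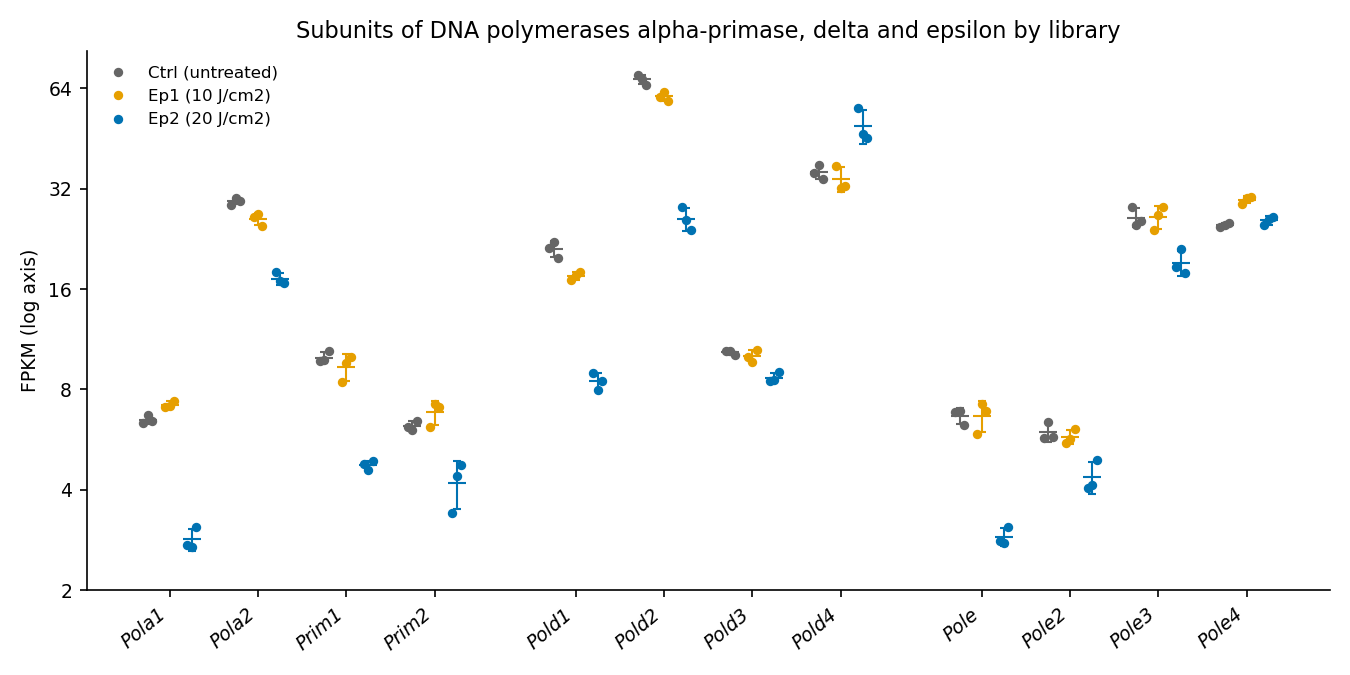
FPKM (log axis) of the 12 subunit genes in each library (points), with the mean and SD of each group of 3 libraries, for Ctrl, Ep1 (10 J/cm2) and Ep2 (20 J/cm2). Ep2 lies below Ctrl for all 10 members, while Pold4 is higher in Ep2 and Pole4 is highest in Ep1.

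Pola1 (ENSMUSG00000006678, chromosome X, 93304767 to 93632155 on GRCm38, as are all gene positions below) encodes the catalytic subunit of polymerase alpha. Its level was 6.36, 6.69 and 6.45 FPKM in Ctrl, 7.08, 7.12 and 7.40 in Ep1, and 2.73, 2.70 and 3.10 in Ep2. The Ep1 libraries lay above Ctrl and the Ep2 libraries below, without overlap. In Ep2 Pola1 fell by 0.97 on the log2(FPKM + 1) scale (SE 0.055, limma adjusted p = 3.40e-06), to 43.7% of the Ctrl mean. The difference of 0.13 in Ep1 (SE 0.055) did not pass the test (adjusted p = 0.152). All log2 fold changes of the main fit are on the log2(FPKM + 1) scale, while percentages are of mean FPKM. For low genes such as Pola1 and Pole, the log2 values are therefore smaller than the percentages imply.

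Pola2 (ENSMUSG00000024833, chromosome 19, 5940543 to 5964206) encodes the regulatory B subunit of polymerase alpha. It was measured at 28.7, 30.0 and 29.4 FPKM in Ctrl, 26.3, 26.9 and 24.7 in Ep1, and 18.0, 16.9 and 16.7 in Ep2. The groups were ordered Ctrl, Ep1, Ep2 without overlap. Pola2 fell to 58.5% of Ctrl in Ep2 (log2 fold change -0.74, SE 0.047, adjusted p = 5.73e-06) and to 88.5% in Ep1 (-0.17, SE 0.047, adjusted p = 0.0475).

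Primase consists of Prim1, its catalytic subunit (ENSMUSG00000025395, chromosome 10, 128015168 to 128030037), and Prim2, its large subunit (ENSMUSG00000026134, chromosome 1, 33453810 to 33669795). Prim1 was at 9.71, 9.78 and 10.4 FPKM in Ctrl, 8.40, 9.63 and 10.0 in Ep1, and 4.77, 4.57 and 4.87 in Ep2. Prim2 was at 6.16, 6.05 and 6.45 FPKM in Ctrl, 6.17, 7.22 and 7.09 in Ep1, and 3.42, 4.40 and 4.74 in Ep2. For both genes Ep1 overlapped Ctrl and Ep2 lay below. Prim1 fell to 47.5% of Ctrl in Ep2 (log2 fold change -0.93, SE 0.065, adjusted p = 7.20e-06). Prim2 fell to 67.3% (-0.49, SE 0.096, adjusted p = 0.00215), with replicate 1 the lowest of the Ep2 libraries. In Ep1 the log2 differences were -0.09 for Prim1 and 0.11 for Prim2, and neither passed the test (adjusted p = 0.402 and 0.462).

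Polymerase delta held the members with the largest falls. Pold1 (ENSMUSG00000038644, chromosome 7, 44532746 to 44548849) encodes the catalytic subunit, which also carries the proofreading exonuclease. Its level was 21.3, 22.1 and 19.8 FPKM in Ctrl, 17.0, 17.7 and 18.0 in Ep1, and 8.95, 7.96 and 8.48 in Ep2. No library of 1 group reached into another group. Pold1 fell to 40.2% of Ctrl in Ep2 (log2 fold change -1.22, SE 0.056, adjusted p = 1.84e-06) and to 83.4% in Ep1 (-0.25, SE 0.056, adjusted p = 0.0261).

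Pold2 (ENSMUSG00000020471, chromosome 11, 5872180 to 5878292) encodes the B subunit that bridges the catalytic and the accessory subunits. It was measured at 70.1, 68.5 and 65.7 FPKM in Ctrl, 60.4, 62.5 and 58.6 in Ep1, and 28.2, 25.8 and 24.0 in Ep2. The groups did not overlap. In Ep2 Pold2 fell to 38.2% of Ctrl (log2 fold change -1.36, SE 0.058, adjusted p = 1.72e-06), the change ranked 12 from the lowest of 11727 tested genes. The Ep1 difference of -0.17 (SE 0.058) did not pass the test (adjusted p = 0.0915).

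Pold3 (ENSMUSG00000030726, chromosome 7, 100082111 to 100121565) encodes a subunit that binds PCNA, and its level was 10.4, 10.4 and 10.2 FPKM in Ctrl, 10.0, 9.65 and 10.5 in Ep1, and 8.50, 8.54 and 9.01 in Ep2. The Ep2 libraries were lower than all others, by less than for any other member. Pold3 fell by 0.23 on the log2 scale (SE 0.046, adjusted p = 0.00253), to 84.0% of Ctrl, and its Ep1 difference was -0.04 (adjusted p = 0.642).

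Pold4 (ENSMUSG00000024854, chromosome 19, 4231899 to 4233631), the smallest subunit of the complex, encodes a protein that is known to be degraded after DNA damage. It was at 35.6, 37.8 and 34.3 FPKM in Ctrl, 37.5, 32.2 and 32.6 in Ep1, and 55.8, 46.6 and 45.4 in Ep2. All Ep2 libraries lay above all others. Pold4 rose to 137% of Ctrl in Ep2 (log2 fold change 0.44, SE 0.085, adjusted p = 0.00192), and in Ep1 the difference was -0.07 (adjusted p = 0.611).

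Pole (ENSMUSG00000007080, chromosome 5, 110286306 to 110337474) encodes the catalytic subunit of polymerase epsilon. Its level was 6.85, 6.89 and 6.25 FPKM in Ctrl, 5.89, 7.24 and 6.89 in Ep1, and 2.81, 2.77 and 3.09 in Ep2. Ctrl and Ep1 overlapped, and Ep2 stood apart. Pole fell to 43.4% of Ctrl in Ep2 (log2 fold change -0.98, SE 0.075, adjusted p = 1.16e-05), and the Ep1 difference was -0.0011 (SE 0.075, adjusted p = 0.994).

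Pole2 (ENSMUSG00000020974, chromosome 12, 69201773 to 69228195) encodes the B subunit of this complex. It was at 5.71, 6.41 and 5.76 FPKM in Ctrl, 5.53, 5.67 and 6.08 in Ep1, and 4.04, 4.14 and 4.93 in Ep2. Pole3 (ENSMUSG00000028394, chromosome 4, 62522649 to 62525068) encodes a histone-fold subunit and was at 28.1, 25.0 and 25.5 FPKM in Ctrl, 24.0, 26.7 and 28.1 in Ep1, and 18.6, 21.1 and 17.9 in Ep2. For both genes Ep1 overlapped Ctrl and the Ep2 libraries were lowest. Pole2 fell to 73.4% of Ctrl in Ep2 (log2 fold change -0.38, SE 0.074, adjusted p = 0.00219) and Pole3 to 73.2% (-0.43, SE 0.077, adjusted p = 0.00128). The Ep1 differences were -0.04 for Pole2 and 0.0016 for Pole3 (adjusted p = 0.753 and 0.992), and these, like that of Pole, changed sign when single libraries were left out. Pole and Pole2 were among the hub genes that the study chose on these libraries, so their values are not independent of that choice.

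Pole4 (ENSMUSG00000030042, chromosome 6, 82618992 to 82705365) encodes the histone-fold partner of Pole3. It was at 24.5, 24.9 and 25.2 FPKM in Ctrl, 28.8, 30.0 and 30.1 in Ep1, and 24.9, 25.9 and 26.4 in Ep2. The Ep1 libraries were highest, and Ep2 overlapped Ctrl. In Ep1 Pole4 rose to 119% of Ctrl (log2 fold change 0.24, SE 0.039, adjusted p = 0.00989), a call that was lost without Ctrl replicate 2 or Ep1 replicate 3 (adjusted p up to 0.0514). The Ep2 difference of 0.05 did not pass the test (adjusted p = 0.358), while it passed with a correction for gene length (adjusted p = 0.0271).

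**Figure D2:**
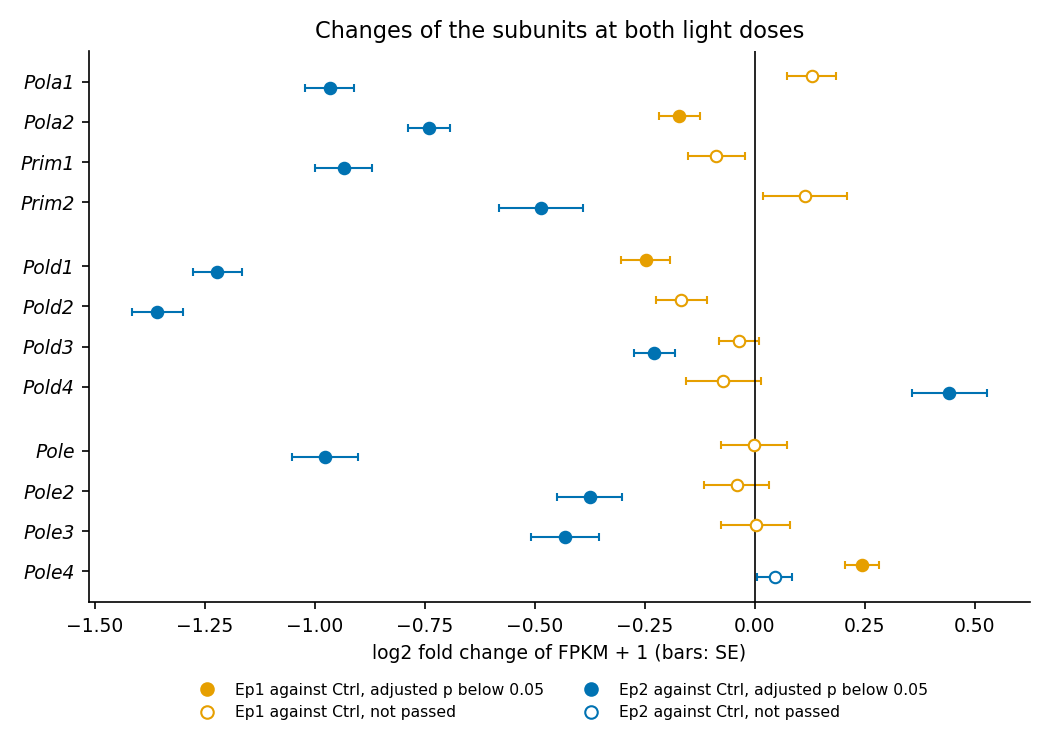
Log2 fold change of FPKM + 1 (x axis, bars are the SE of the limma fit) of the 12 subunit genes in Ep1 and in Ep2 against the same Ctrl libraries, with filled points for an adjusted p below 0.05. The Ep2 values of the members run from -1.36 (Pold2) to -0.23 (Pold3), and their Ep1 values from -0.25 (Pold1) to 0.13 (Pola1).

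In Ep1 compared with Ctrl, 2 of 10 members were called lower at an adjusted p below 0.05 and limma called 0 higher (1 at an unadjusted p below 0.05, and 0 with voom on recovered fragments), where 4.97% of the 11727 tested genes were called lower and 6.32% higher. The calls of Pola2 and Pold1 depended on the libraries kept. Their log2 fold changes stayed negative, at -0.20 to -0.14 and -0.29 to -0.21, when 1 library was left out. Without Ctrl replicate 1, Ctrl replicate 2, or any 1 of the 3 Ep1 replicates, 0 members were called. In those fits the calls over all tested genes also dropped, from 1324 to between 191 and 842. Without Ctrl replicate 3 or Ep2 replicate 2 only 1 member was called, while without Ep2 replicate 1 there were 3, with Pold2 added. The libraries did not overlap for 3 members that were lower (Pola2, Pold1 and Pold2) and 1 that was higher (Pola1), against 20.5% and 20.8% of the tested genes. The median log2 fold change of the members was -0.04, and that of all tested genes was -0.01.

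In Ep2 compared with Ctrl, 10 of 10 members were called lower, where 29.3% of the tested genes were called lower and 23.9% higher. For 6 members the log2 fold change was also below -0.6, where 5.87% of the tested genes passed both limits. They were Pola1, Pola2, Prim1, Pold1, Pold2 and Pole. The study used this limit of fold change, applied here on the log2(FPKM + 1) scale. No library of Ep2 overlapped Ctrl for any member, against 32.7% of the tested genes that were lower without overlap. The members had a median log2 fold change of -0.84, beside -0.03 for all tested genes. All 10 calls held in each of the 18 alternative fits of each member.

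The Ep1 and Ep2 comparisons share the Ctrl libraries, and the direct comparison of Ep2 with Ep1 tests the step from 10 to 20 J/cm2. Here 10 of 10 members were called lower, where 25.2% of the tested genes were called lower and 18.8% higher. The libraries of Ep2 lay below those of Ep1 without overlap for all 10, beside 30.3% of the tested genes. For 5 members the log2 fold change was below -0.6, beside 3.97% of the tested genes. Pold2 (-1.19), Pola1 (-1.10), Pole (-0.98), Pold1 (-0.97) and Prim1 (-0.85) were those 5. Prim2, at 61.3% of its Ep1 mean, lay next to the limit at -0.60, and at -0.72 to -0.54 in the other settings. Whether Prim2 passes the limit therefore depends on the fit. Pold3 had the smallest fall (-0.19, adjusted p = 0.00822). Pold4 was higher in Ep2 than in Ep1 (0.51, adjusted p = 0.00115) and Pole4 was lower (-0.20, adjusted p = 0.00313).

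The order of the levels differed between the groups. In Ctrl, Pold2 was highest at 68.1 ± 2.25 FPKM, followed by Pold4, Pola2, Pole3, Pole4 and Pold1, then by Pold3 and Prim1, and last by Pole, Pola1, Prim2 and Pole2 at 6.66 to 5.96 FPKM. The library ranges of Pole3 and Pole4, of Pold3 and Prim1, and of each neighbouring pair among the last 4 overlapped, so their order was not resolved. In Ep2, Pold4 was highest at 49.3 ± 5.70 FPKM and Pold2 came next at 26.0 ± 2.09 FPKM, overlapping Pole4 at 25.7 ± 0.750 FPKM. The lowest levels in Ep2 were those of the catalytic subunits Pole and Pola1, at 2.89 ± 0.176 and 2.84 ± 0.221 FPKM, which overlapped each other and lay below Prim2, the next gene. Pold1 and Pold3, which were at 21.1 ± 1.18 and 10.3 ± 0.153 FPKM in Ctrl, overlapped in Ep2 at 8.46 ± 0.494 and 8.68 ± 0.283 FPKM.

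Subunits of the same complex therefore kept different shares of their Ctrl levels, and ratios of FPKM within each library were compared. With 3 libraries against 3, the exact two-sided permutation test cannot give a p below 0.10, and over the 21 ratio comparisons the smallest adjusted p was 0.14, so none could pass a threshold of 0.05. The ratio of Pold1 to Pold3 was 2.04, 2.12 and 1.95 in Ctrl, 1.70, 1.83 and 1.71 in Ep1, and 1.05, 0.933 and 0.941 in Ep2. The 3 groups did not overlap, and the log2 ratio was lower by 1.06 in Ep2 than in Ctrl (difference -1.06, SE 0.067, exact permutation p = 0.10, adjusted 0.14). By contrast, the ratio of Pold1 to Pold2 was 0.310 ± 0.012 in Ctrl, 0.291 ± 0.014 in Ep1 and 0.327 ± 0.023 in Ep2. Ep2 overlapped Ctrl in this ratio (log2 difference 0.08, SE 0.067, exact permutation p = 0.40, adjusted 0.442).

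In polymerase epsilon the ratio of Pole to Pole2 was 1.20, 1.08 and 1.09 in Ctrl, 1.07, 1.28 and 1.13 in Ep1, and 0.695, 0.669 and 0.627 in Ep2. The ratio of Pole to Pole3 was 0.255 ± 0.018 in Ctrl, 0.254 ± 0.015 in Ep1 and 0.152 ± 0.021 in Ep2. In both ratios Ep1 overlapped Ctrl and Ep2 lay below (log2 differences of -0.76 and -0.75 from Ctrl, exact permutation p = 0.10, adjusted 0.14). Hence the catalytic subunit had the larger fall relative to both of these subunits in every Ep2 library.

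In polymerase alpha-primase the ratio of Pola1 to Pola2 was 0.221 ± 0.0021 in Ctrl, 0.278 ± 0.018 in Ep1 and 0.166 ± 0.018 in Ep2, without overlap between the groups. It was the only ratio between members that was higher in all Ep1 libraries and lower in all Ep2 libraries than in Ctrl. The ratio of Prim1 to Prim2 was 1.58, 1.62 and 1.62 in Ctrl, 1.36, 1.33 and 1.41 in Ep1, and 1.40, 1.04 and 1.03 in Ep2. Ep2 replicate 1 lay within the range of Ep1, and both treated groups lay below Ctrl. The ratio of Pola1 to Prim1 was 0.652 ± 0.034 in Ctrl, 0.774 ± 0.060 in Ep1 and 0.599 ± 0.033 in Ep2, with Ctrl and Ep2 overlapping.

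Chosen after the values were seen, the ratio of Pold4 to Pold1 was 1.67, 1.71 and 1.73 in Ctrl, 2.20, 1.82 and 1.81 in Ep1, and 6.24, 5.85 and 5.36 in Ep2. The ratio of Pole4 to Pole3, chosen likewise, was 0.953 ± 0.070 in Ctrl, 1.13 ± 0.064 in Ep1 and 1.35 ± 0.12 in Ep2. Both ratios were lowest in Ctrl and highest in Ep2, without overlap.

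**Figure D3:**
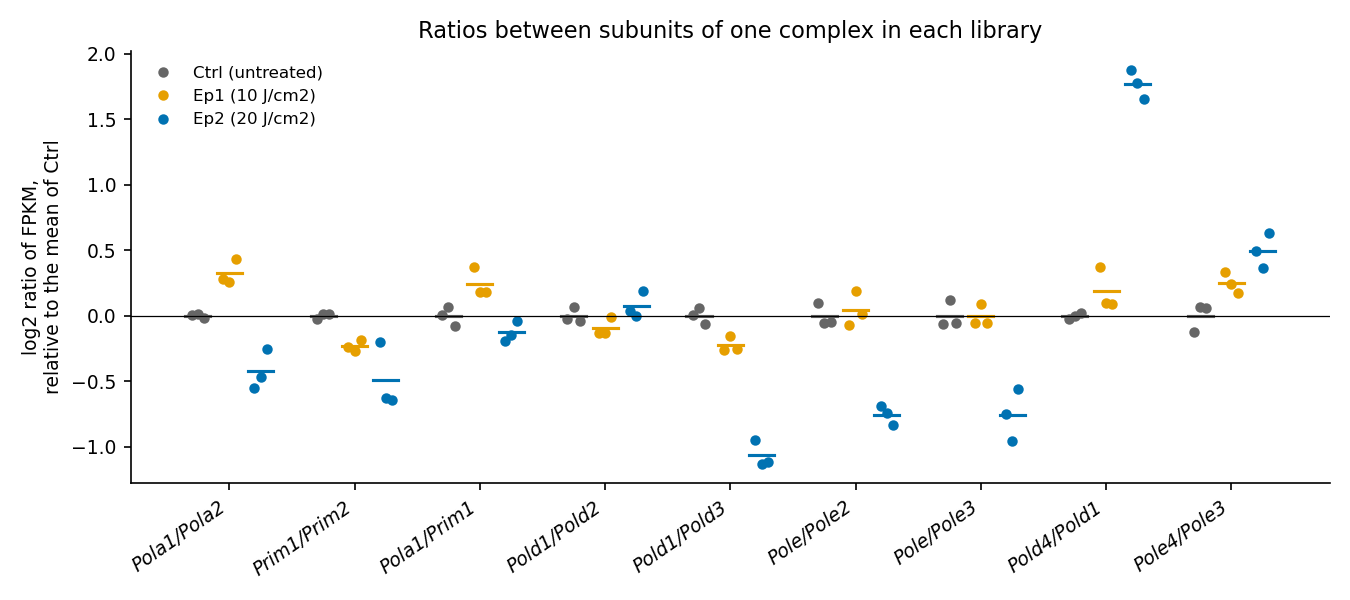
Log2 of the FPKM ratio between subunits of 1 complex in each library, relative to the mean of Ctrl (points are libraries, lines are means of 3). Pold1/Pold3, Pole/Pole2 and Pole/Pole3 are lower in Ep2, Pold1/Pold2 stays near 0, and Pold4/Pold1 is highest in Ep2.

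The E2F letters printed above were present at members with large and with small falls in Ep2. Among the 4 members with the letters, the log2 fold changes were -1.22 (Pold1), -0.97 (Pola1), -0.38 (Pole2) and -0.23 (Pold3). Among the 4 members whose windows lack them, they were -1.36 (Pold2), -0.93 (Prim1), -0.74 (Pola2) and -0.43 (Pole3). Pole4, which also holds the letters, did not pass the test in Ep2.

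The other genes of the replication fork were compared as a list of 31 genes of the helicase, clamp, clamp loader, single-strand binding protein, fork protection and Okazaki fragment processing, all of which were tested. In Ep2, 30 of the 31 were called lower, where 29.3% of the tested genes were called lower. Of these fork genes, 22 were also below -0.6, beside 5.87% of the tested genes. The median log2 fold change of the list was -0.70, beside -0.03 over all tested genes. Gins1, a subunit of the helicase complex, had the largest fall on the log2(FPKM + 1) scale (log2 fold change -1.09, adjusted p = 1.72e-06), to 45.0% of Ctrl, and the helicase subunits Mcm7 (-1.06, adjusted p = 1.84e-06) and Mcm2 (-0.95, adjusted p = 1.91e-06) had the next smallest adjusted p. As a share of the Ctrl mean, the low genes Fen1 (39.4%) and Dna2 (41.6%), named after their values were seen, were lower still. The exception was Rpa3, the smallest subunit of the single-strand binding protein, at 21.6 FPKM in both groups (log2 fold change -0.0021, adjusted p = 0.986), a gene singled out after its values were seen. Of the 24 fork genes with a RefSeq window, 8 held the E2F letters (33.3%). In Ep1, 4.97% of the tested genes were called lower and 6.32% higher. Only Mcm4 of the 31 was called there, as higher (0.18, adjusted p = 0.0218), and it too was named after its values were seen. That call was lost without any 1 of Ctrl replicates 1 to 3, Ep1 replicate 2 or Ep1 replicate 3. Mcm4, Mcm5, Mcm7 and Cdc45 of this list were also hub genes of the study, so their values are likewise not independent of that choice.

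The DNA polymerases of repair, mitochondria and lesion bypass were compared as a further list. Of 15 such genes 12 were tested, and Poln, Primpol and Dntt were under the filter. In Ep2, 3 of the 12 were called lower and 1 higher, beside 29.3% and 23.9% of all tested genes. Their log2 fold changes had a median of -0.13, beside -0.03 over all tested genes. Polq, the polymerase of theta-mediated end joining, fell to 57.9% of Ctrl (-0.53, adjusted p = 6.1e-05), Polh, a lesion bypass polymerase, to 76.9% (-0.34, adjusted p = 0.00345), and Poll, a repair polymerase named after its values were seen, to 80.4% (-0.25, adjusted p = 0.0352). Polm, a polymerase of end joining, rose to 114% (0.18, adjusted p = 0.0243). The log2(FPKM + 1) scale understates the change of low genes, so list medians also depend on level. Polq, at 2.63 FPKM in Ctrl, kept nearly the same share of Ctrl as Pola2 (58.5%), which was at -0.74 on this scale. In Ep1, limma called 0 of the 12 (2 were lower at an unadjusted p below 0.05, and voom called 1 lower). Without Ctrl replicate 2, the Ep2 calls were 2 lower and 0 higher. In Ep2 compared with Ep1 Polq was called lower and Polm higher (0.34, adjusted p = 0.00124).

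Pole3 also serves outside the polymerase, in the chromatin remodelling complex CHRAC with Chrac1, Baz1a and Smarca5. In Ep2, limma called 0 of these 3 genes, 0 were below an unadjusted p of 0.05 and voom called 0 (log2 fold changes from 0.03 to 0.08), whereas Pole3 fell. In Ep1, Baz1a (0.23, adjusted p = 0.0265) and Smarca5 (0.18, adjusted p = 0.0226) rose, and Chrac1 was at -0.04. Both Ep1 calls were lost without Ctrl replicate 1, Ctrl replicate 2, Ep1 replicate 1 or Ep1 replicate 3, and 1 call was left without Ep1 replicate 2.

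Cell cycle markers moved with the members. In Ep2, 11 of 11 were called lower, beside 29.3% of the tested genes. Of these markers, 8 were also below -0.6, beside 5.87% of the tested genes. Their median log2 fold change was -0.68, beside -0.03 over all tested genes. Tk1, thymidine kinase of S phase, had the largest fall (-1.32, adjusted p = 2.48e-06). Ccna2, cyclin A of S and G2 phase, was at -1.02 (adjusted p = 2.71e-06), and Mki67, a marker of cycling cells, at -0.78 (adjusted p = 1.84e-06). Ccna2 of this list, and Cdk1, named for this reason only, were also hub genes of the study. Their values are likewise not independent of that choice. In Ep1, limma called 0 of the 11 (1 was lower at an unadjusted p below 0.05, and voom called 1 lower), and their median was 0.04. The part of the share of cycling cells in the falls of the members was not tested.

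**Figure D4:**
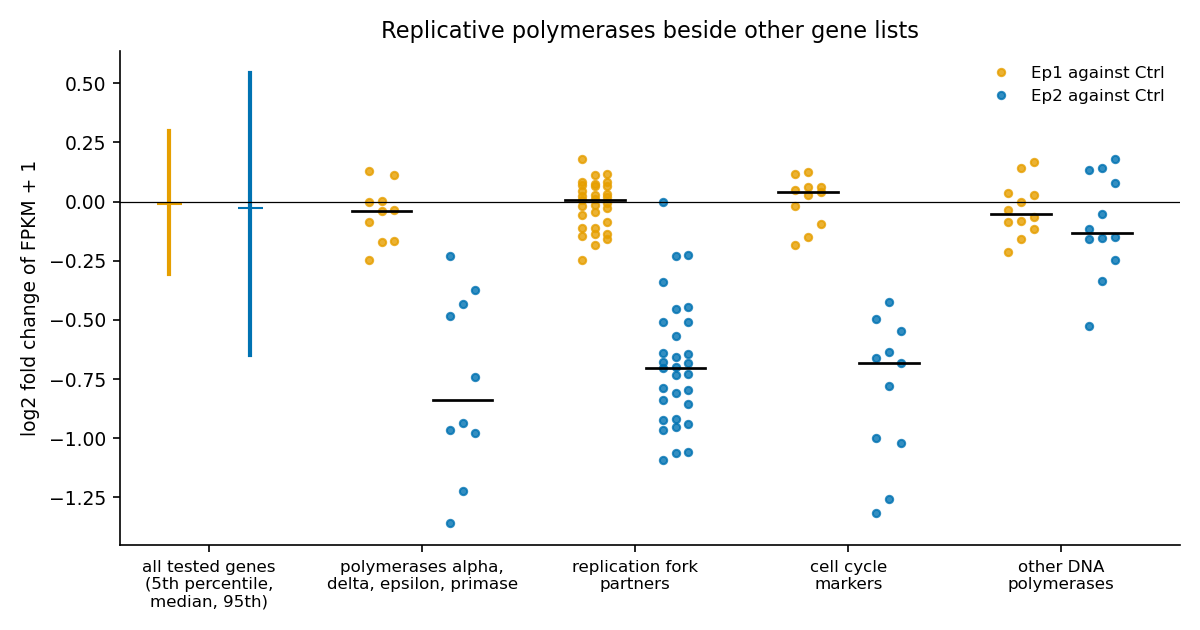
Log2 fold change of FPKM + 1 in Ep1 and in Ep2 against Ctrl for the members and the other lists (points are genes, black lines are list medians), with bars from the 5th to the 95th percentile of all 11727 tested genes at the left. In Ep2 the medians are -0.84 for the members, -0.70 for the fork partners, -0.68 for the cell cycle markers and -0.13 for the other DNA polymerases. This scale understates the change of low genes.

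The genes most like the members were found from the Pearson correlation, over the 9 libraries, with the mean standardized profile of the members, among 5019 tested genes with a mean of at least 10 FPKM. Gart, an enzyme of purine synthesis, came first (r = 0.998; 41.8, 39.9 and 20.5 FPKM on average in Ctrl, Ep1 and Ep2), and the next included Umps, an enzyme of pyrimidine synthesis, Nup85, a nuclear pore gene, and Rfwd3, a ubiquitin ligase of replication stress. The most opposite was Cnn2, an actin-binding calponin (r = -0.997; 43.7, 43.7 and 105 FPKM), then Atp6v1e1, Surf4, Capzb and Cd68. All 9 libraries come from 1 cell line, and the 3 Ep2 libraries stand apart from the other 6, so these values describe that separation.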

How the data were processed

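Paired-end libraries of B.END3 RNA (9 in all, 3 each for Ctrl, Ep1 and Ep2) were grouped by their titles and treatment labels. From reads aligned to mouse, the authors deposited 1 FPKM value per gene and library, in which gene length and library size are already accounted for. The submitters' processing notes name Bowtie 0.12.2 and mm8, the methods name GRCm39, and the listed coordinates overlap GRCm38 for 99.9% of 37775 genes compared, so positions are given on GRCm38. The counting tool, the use of strand and the test behind the DEGs are not given in the sources used here. Of the 12 subunit genes, 6 overlap 13 other listed genes, 7 of them on the opposite strand, none above 0.443 FPKM on average. Multiplied by gene length, FPKM gave whole fragments within 0.05 in every library. Their number sets the precision of counting, and a count of 0 can stand for up to 3 fragments.

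Genes with at least 1 FPKM in at least 3 libraries (11727) were tested on log2(FPKM + 1), a scale that understates the change of low genes, in 1 limma model of the 9 libraries (two-sided, no covariate, lmFit and then eBayes with the trend and robust options), with Benjamini-Hochberg adjustment within each comparison. Called genes had an adjusted p below 0.05. Ratios were tested on the log2 scale with exact two-sided permutation tests. Alternatives were a pseudocount of 0.1, no filter, a filter of 5 FPKM, median centring, a length correction, fits of only the groups compared, voom on recovered fragments (at least 10 in at least 3 libraries, TMM), a replicate block, the omission of each library, and, chosen after seeing the data, a length and GC correction. The members and lists were chosen with earlier results of these data known, so their directions are not independent evidence. Named are all members, Pold4 and Pole4, and of each list the 3 genes with the smallest adjusted p in Ep2, the largest rise and fall, and genes under the filter. Names outside this rule are said to be such. The 5 genes most and least like the members followed the same kind of rule, and 1 of them is not reported here. Promoters and their coordinates are from RefSeq on GRCm38.p6. The procedure was tested on simulated data. Software was limma 3.58.1 in R 4.3.3, and scipy 1.17.1, pandas 2.3.3, matplotlib 3.10.9 and numpy 2.4.6 in Python 3.11.15.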

Additional observations from a re-analysis of the deposited data

How the results depend on the processing

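In Ep2 compared with Ctrl and with Ep1, each of the 180 alternative values per comparison kept the direction and the call of the members. In the main fit, the fold change limit of 0.6 left 6 and 5 of the 10 members called. Over all tested genes, this limit left 93 calls in Ep1 (1324 without it), 1075 in Ep2 and 692 between the doses. Genes called in Ep1 numbered 396 with no filter, 2162 with only the groups compared and 191 to 2183 when 1 library was left out. Members called in Ep1, 2 in all, numbered 0 with the fold change limit, no filter or the replicate block, 1 with the length correction or the length and GC correction, and 0 to 3 when 1 library was left out. The replicate block left the 10 calls of the members in both other comparisons. Replicate numbers did not pair the samples, since the correlation of same-numbered deviations ran from -0.0565 to 0.0744, and 2 of the 9 libraries correlated best with their own number. In Ep1, the difference of Pole3 turned to -0.0073 with median centring and -0.0027 with the length and GC correction, and that of Pold4 to 0.011 with the latter. Leaving out 1 library gave -0.055 to 0.074 for Pole, -0.075 to 0.0047 for Pole2 and -0.047 to 0.063 for Pole3. Of Pold4 and Pole4, 2 were called in Ep2 with the length correction, and 0 to 1 in Ep1 when 1 library was left out. Fork partners called in Ep1 numbered 0 with no filter or the length and GC correction and 0 to 1 when 1 library was left out. Other DNA polymerases called in Ep1 numbered 1 with only the groups compared or voom and 0 to 2 when 1 library was left out. With the stricter filter 2 of 6 were called in Ep2 and 1 between the doses, and leaving out 1 library gave 2 to 5 in Ep2. Chromatin partners of Pole3 called in Ep1 numbered 0 with no filter, 1 with the length and GC correction and 0 to 2 when 1 library was left out. In Ep2 there were 2 with the length and GC correction, and between the doses, where 2 were called lower, 1 lower with no filter or only the groups compared, 0 lower and 1 higher with median centring, and 0 to 2 when 1 library was left out. Of the cell cycle markers, 1 was called in Ep1 with only the groups compared or voom. Median centring moved the share of calls that were higher from 42.8% to 55.5% between the doses and from 44.9% to 52.7% in Ep2. The ratios kept their direction, or moved by less than 1 SD, under a pseudocount of 0.1 and without each library. The cause of these changes was not tested. The fewest fragments behind a value of a member were 222 (Pole2 in Ep2), which limits its counting precision.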
